A study of Mus musculus with 6 samples.

Results

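The BMP and TGF-beta pathway genes described here are 45 genes of 39179 in the count table, chosen by name and not by their values: 9 BMP and GDF ligands, the protease *Bmp1*, 3 activin and inhibin subunits, 3 TGF-beta ligands, 6 type I and 4 type II receptors, the co-receptor *Tgfbr3*, 8 SMADs, 6 secreted or membrane antagonists and modulators, and the 4 Id genes. The choice was made with earlier results of these data known. All 45 matched 1 gene each, and 43 passed the filter on low counts and were tested, while *Bmp5* and *Nog* did not pass. RNA was sequenced from 6 libraries of cortical thymic epithelial cells (cTEC) of untreated 10-week-old mice with the genotype *Cxcl12*::DsRed, in which the red fluorescent protein DsRed reports on the chemokine gene *Cxcl12*. Cells sorted as CD45- EpCAM1+ Ly51+ UEA1- were divided into DsRed negative cells, the *Cxcl12*DsRed- cTEC (DsRed- cTEC), and DsRed positive cells, the *Cxcl12*DsRed+ cTEC (DsRed+ cTEC), and experiments A, B and C each gave 1 library of both, so that n = 3 per subset. Both subsets carry the reporter and differ by the sort gate, the sources used here do not give the number of mice behind a library, and p-values reflect library-to-library spread only, which may in part be technical.

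Ligands of the BMP and TGF-beta family bind pairs of type I and type II receptor kinases, which phosphorylate SMAD proteins. BMP ligands act mainly through SMAD1, SMAD5 and SMAD9, and TGF-beta and activin act mainly through SMAD2 and SMAD3. Both groups share SMAD4 as a partner in the nucleus, while SMAD6 and SMAD7 inhibit the pathway. Secreted proteins such as Noggin, Chordin, Gremlin and Follistatin hold ligands away from their receptors, and the Id genes, which encode inhibitors of basic helix-loop-helix transcription factors, are classical BMP targets. In the thymus, BMP4 is known as a ligand made by mesenchyme and endothelium that acts on thymic epithelium and supports *Foxn1* expression.

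Counts in genes ranged from 34574900 to 51042679 per library. The DsRed transcript stood at 16.8 to 28.6 CPM (counts relative to library size) in DsRed- cTEC and at 891 to 2055 in DsRed+ cTEC. *Foxn1* stood at 83, 135 and 53.8 CPM in DsRed- cTEC of A, B and C and at 291, 276 and 156 CPM in DsRed+ cTEC, and all 10 cTEC markers were lower in every DsRed- library. This and all further CPM values use library sizes scaled by TMM. Markers of other cells also moved with the sort. The summed level of 14 endothelial markers was 174 to 217 CPM in DsRed- cTEC and 901 to 6713 CPM in DsRed+ cTEC, with 11 of the 14 lower in every DsRed- library and all 14 highest among the DsRed+ libraries in that of C. The 12 tuft cell markers summed to 543 to 3061 CPM in DsRed- cTEC and 38.6 to 43.9 CPM in DsRed+ cTEC, with all 12 higher in every DsRed- library, all 12 highest in that of A, and *Il25* at 0 in DsRed+ cTEC. The 10 fibroblast markers summed to 546 to 2224 CPM and 423 to 652 CPM, the highest sum being in the DsRed- library of C. Of these 10, only *Fbln1* was higher in every DsRed- library, and none was at 0 in a whole subset. The 9 pericyte and smooth muscle markers summed to 789 to 1050 CPM in DsRed- cTEC and 1008 to 1721 CPM in DsRed+ cTEC, with 1 lower in every DsRed- library, and *Cspg4* was at 0 in the DsRed- library of A. The 6 myeloid markers summed to 137 to 852 CPM in DsRed- cTEC and 22.8 to 81.6 CPM in DsRed+ cTEC, with 2 of the 6 higher in every DsRed- library. Among them *Itgax* was at 0 in the DsRed- libraries of A and B and the DsRed+ library of C, and *Adgre1* in the DsRed+ library of C. The 8 thymocyte markers, at 28.0 to 67.9 CPM and 35.3 to 241 CPM, and the 5 mTEC markers, at 3666 to 6585 CPM and 2102 to 9345 CPM, overlapped in sum. The part of these cells in the members' values was not tested. Strand-specific counting is not stated, and apart from *Bmp5* no member shares more than 7.84% of its exon length with another counted gene.

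No member passed an adjusted p of 0.05 in edgeR's quasi-likelihood test, in which 0.623% of the 15576 genes tested passed, nor in the same test with the experiment as a block, in which 0.469% passed. At an unadjusted p under 0.05 in the quasi-likelihood test there were 6 members, 13.95% of the 43, beside 11.8% of all genes. These were *Bmp4*, *Inhba*, *Tgfb3* and *Id2*, which were higher in DsRed- cTEC, and *Acvrl1* and *Bambi*, which were lower. The same 6 were the members whose libraries did not overlap between the subsets. The 4 higher members are 9.302% of the 43 beside 9.73% of all genes tested, and the 2 lower members are 4.651% beside 9.32%. DESeq2 called *Bmp4*, *Inhba*, *Tgfb3* and *Acvrl1*, 4 of 43, beside 7.19% of all genes to which it gave an adjusted p. edgeR's likelihood ratio test, which treats the estimated spread as known, called *Bmp4* and *Inhba* as higher, beside 3.53% of all genes, and *Acvrl1* as lower, beside 2.12%. The difference between the subsets had 1 sign in all 3 experiments for 9 of the 43 members (20.93%), beside 35.0% of all genes. The shares of members called were thus near or under those of all genes, and the members' median log2 fold change was 0.18, beside 0.02 over all genes. Positive values mean more transcript in DsRed- cTEC than in DsRed+ cTEC, here and in every fold change given.

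**Figure D1:**
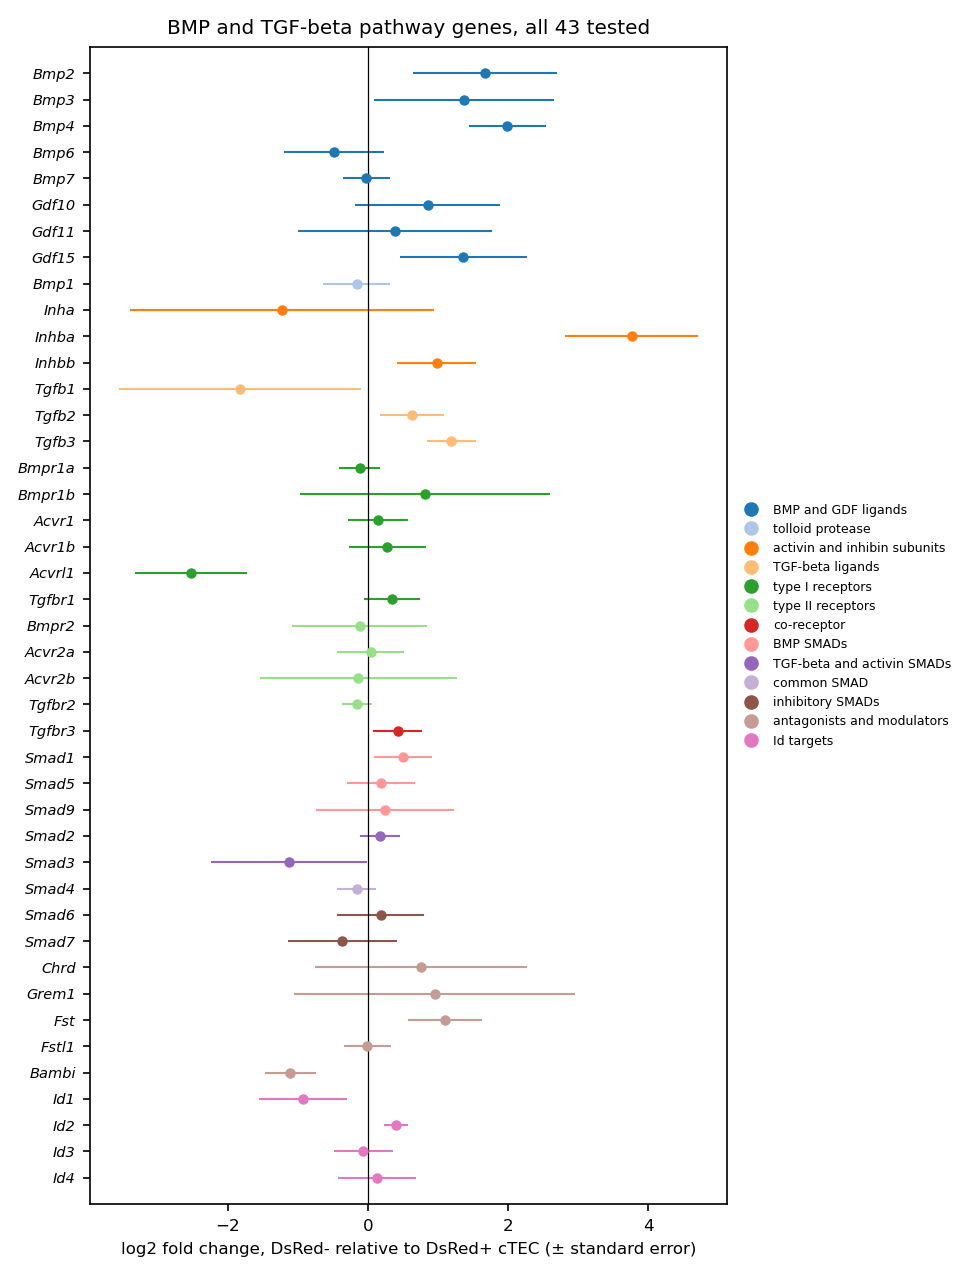
Each point is the log2 fold change (x axis) of 1 of the 43 members tested, with bars of 1 standard error from edgeR's quasi-likelihood fit on 3 libraries per subset, coloured by role. Most points lie within 1 unit of 0, *Inhba* and *Bmp4* lie farthest to the right, and *Acvrl1* lies farthest to the left.

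The promoters of *Bmp4* and *Inhba* are shown because these were the ligand genes that both the likelihood ratio test and DESeq2 called, and that of *Id4* because it is an Id target whose window starts outside the counted gene. Each sequence is the 250 bases before the RefSeq start site on the gene's strand, in build GRCm38.p6, and capitals mark a motif.
*Bmp4*, chr14:46390670-46390919, minus strand: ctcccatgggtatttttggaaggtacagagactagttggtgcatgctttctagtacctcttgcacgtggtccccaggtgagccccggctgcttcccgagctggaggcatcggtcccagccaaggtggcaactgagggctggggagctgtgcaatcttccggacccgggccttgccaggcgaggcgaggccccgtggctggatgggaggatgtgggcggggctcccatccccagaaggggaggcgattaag
*Inhba*, chr13:16011601-16011850, plus strand: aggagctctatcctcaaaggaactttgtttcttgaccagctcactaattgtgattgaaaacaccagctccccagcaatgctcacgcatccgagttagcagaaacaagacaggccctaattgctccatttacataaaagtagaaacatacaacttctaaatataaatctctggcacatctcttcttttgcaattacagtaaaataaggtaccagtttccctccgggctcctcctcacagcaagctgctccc
*Id4*, chr13:48260866-48261115, plus strand: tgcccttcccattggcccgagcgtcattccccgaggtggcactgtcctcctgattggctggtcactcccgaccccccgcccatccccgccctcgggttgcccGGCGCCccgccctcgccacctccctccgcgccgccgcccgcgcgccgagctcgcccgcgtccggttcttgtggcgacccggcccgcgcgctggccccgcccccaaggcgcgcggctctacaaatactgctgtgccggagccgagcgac
The motifs searched on both strands over 300 bases, from 250 before to 50 after the start, were GGCGCC, a palindrome bound by SMAD proteins of the BMP branch, and CAGAC with its complement GTCTG, the short SMAD motif, which do not overlap. RefSeq gave 37 promoters for 31 of the 45 members. GGCGCC was in 12 of these 37 (32.43%), beside 11.87% of 32851 promoters of all genes, and CAGAC or GTCTG in 17 (45.95%), beside 49.59%. The window of *Id4* and that of *Id2* held GGCGCC 1 time each, the window of *Id3* held CAGAC or GTCTG 2 times, and those of *Bmp4* and *Inhba* held neither. These shares are descriptions, and the windows were not matched for base composition.

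Of the BMP ligands, *Bmp4* had the highest mean per length over the 6 libraries, at 9.52 CPM per kb of exon, and it was the only one whose libraries did not overlap between the subsets. Over all genes tested, 9.73% were higher in every DsRed- library. *Bmp4* (ENSMUSG00000021835; chr14:46383520-46390669, minus strand, GRCm38) encodes the BMP ligand best known in thymus growth. It stood at 26.7, 50.6 and 25.3 CPM in the DsRed- libraries of A, B and C and at 14.7, 5.07 and 6.11 CPM in the DsRed+ libraries. All 3 DsRed- libraries were above all 3 DsRed+ libraries, and the ratio within an experiment was 1.82, 9.98 and 4.14 in A, B and C. The log2 fold change was 1.99 (standard error 0.55; 95% interval 0.68 to 3.30), with an adjusted p of 0.183 in edgeR's quasi-likelihood test, 0.0302 in its likelihood ratio test and 0.0118 in DESeq2. Over all alternatives its adjusted p ran from 0.0043 to 0.484. Without 1 library, the likelihood ratio test called *Bmp4* in 2 of 6 fits, those without the DsRed- library of C and the DsRed+ library of A, and the log2 fold change stayed between 1.59 and 2.57. *Bmp4* was highest in the DsRed- library of B, while the fibroblast markers summed highest in that of C, and the endothelial markers were higher in DsRed+ cTEC, where *Bmp4* was lower. The part of these cells in the level of *Bmp4* was not tested. In bulk libraries, a difference in the number of cells that make a transcript cannot be told apart from a difference in transcript per cell.

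The other BMP and GDF ligands overlapped between the subsets. Where 2 sets of 3 values follow each other without a name, here and further on, the DsRed- libraries come first, each in the order A, B, C. *Bmp7*, a ligand active in many epithelia, was the steadiest, at 17.7, 32.8 and 22.5 CPM in DsRed- cTEC and 24.7, 26.2 and 23.2 CPM in DsRed+ cTEC, with a log2 fold change of -0.02 and a 95% interval of -0.82 to 0.77. In DsRed+ cTEC its mean per length, 6.15 CPM per kb, was above that of *Bmp4*, 3.83 CPM per kb. *Bmp2*, the closest relative of *Bmp4*, stood at 18.6, 5.6 and 6.74 CPM in DsRed- cTEC and at 0.662, 1.94 and 7.09 CPM in DsRed+ cTEC. Its excess in DsRed- cTEC was 28.1-fold in A and 2.89-fold in B, and in C the subsets were level at a ratio of 0.951. *Gdf15*, a stress-induced ligand, stood at 18.8, 16.1 and 4.3 CPM and 3.1, 1.69 and 10.5 CPM, higher in DsRed- cTEC in A and B and lower in C. *Gdf10*, also called BMP3B, stood at 5.63, 6.27 and 23.3 CPM and 0.907, 5.69 and 12.9 CPM, with the higher value in DsRed- cTEC within every experiment but with overlapping subsets. *Bmp3*, *Bmp6* and *Gdf11* stood at no more than 12.1 CPM in any library. *Gdf11*, at 0.60, 12.1 and 0.32 CPM in the DsRed- libraries, spanned 37.8-fold over the 6 libraries. *Bmp5* was not tested: its counts were 1, 1 and 0 in DsRed- cTEC and 1, 33 and 113 in DsRed+ cTEC, and 46.7% of its exon length is shared with the gene *Gm26903*. *Bmp1*, whose product cleaves procollagen and Chordin and is no ligand, stood at 11.7, 8.49 and 19.4 CPM and 15.4, 17.7 and 11.1 CPM and overlapped. Of the 8 BMP and GDF ligands tested, 6 had a positive and 2 a negative log2 fold change (median 1.10), none past the adjusted threshold of the quasi-likelihood test.

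Among the activin and inhibin subunits, *Inhba* had the largest difference of all members. *Inhba* (ENSMUSG00000041324; chr13:16011851-16031621, plus strand) encodes the subunit of activin A. It stood at 25.6, 5.93 and 4.26 CPM in DsRed- cTEC and at 1.0, 0.73 and 0.902 CPM in DsRed+ cTEC. The DsRed+ libraries lay close together near 1 CPM, from 35 to 53 counts, and the DsRed- library of A stood apart from those of B and C. The log2 fold change was 3.76 (standard error 0.94; 95% interval 1.52 to 6.0), with an adjusted p of 0.141 in edgeR's quasi-likelihood test, 0.00809 in its likelihood ratio test and 4.88e-04 in DESeq2, and of 4.88e-04 to 0.435 over all alternatives. Without the DsRed- library of A, the log2 fold change was 2.50 and the adjusted p of the likelihood ratio test 0.233. That test called *Inhba* in 2 of 6 fits that left out 1 library, those without the DsRed- library of B or of C. The library with the highest *Inhba* was also the one in which all 12 tuft cell markers were highest, at a sum of 3061 CPM against 847 and 543 CPM in the DsRed- libraries of B and C, and the part of tuft cells in this difference was not tested. *Inhbb*, the subunit of activin B, stood at 13.6, 32.7 and 9.35 CPM and 8.37, 10.3 and 9.56 CPM, with its highest value in the DsRed- library of B. *Inha*, the subunit found only in inhibin, had 0, 0 and 186 counts in DsRed- cTEC and 253, 121 and 132 counts in DsRed+ cTEC. A count of 0 in the DsRed- libraries of A and B allows up to 0.0693 and 0.0913 CPM by a floor of 3 counts, while the DsRed- library of C, at 4.57 CPM, lay within the range of DsRed+ cTEC, and without that library the likelihood ratio test called *Inha* as lower (adjusted p = 1.84e-04).

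**Figure D2:**
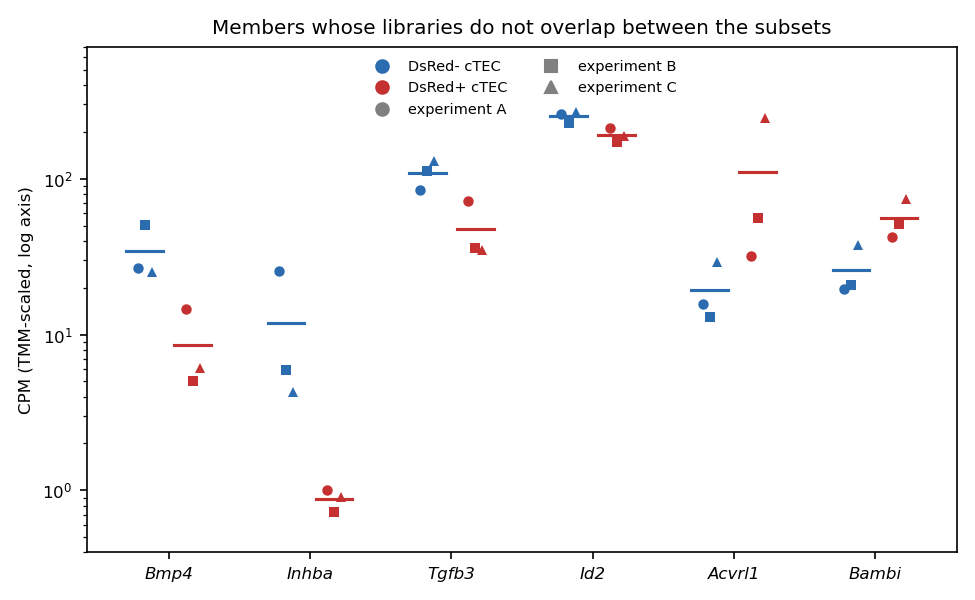
CPM on a log axis of the 6 members whose 3 DsRed- libraries (blue) do not overlap the 3 DsRed+ libraries (red), with marker shapes for the experiments and horizontal bars at subset means. *Bmp4*, *Inhba*, *Tgfb3* and *Id2* are higher in blue, *Acvrl1* and *Bambi* are lower, and *Id2* has the smallest difference and the tightest points.

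Of the TGF-beta ligands, *Tgfb3* had the highest level per length in every library, followed by *Tgfb2* and *Tgfb1* in 6 of 6 libraries. *Tgfb3* (ENSMUSG00000021253; chr12:86056745-86079041, minus strand), a TGF-beta ligand with known roles in epithelial fusion, stood at 84.1, 112 and 129 CPM in DsRed- cTEC and at 71.8, 36 and 35 CPM in DsRed+ cTEC. The subsets did not overlap, but in A the values were near each other, with ratios of 1.17, 3.11 and 3.69 in A, B and C. The log2 fold change was 1.19 (standard error 0.35; 95% interval 0.36 to 2.02), with an adjusted p of 0.212 in edgeR's quasi-likelihood test, 0.069 in its likelihood ratio test and 0.0361 in DESeq2, and of 0.00551 to 0.586 over all alternatives. Without the DsRed+ library of A the likelihood ratio test called it (adjusted p = 0.00551). *Tgfb2*, which shares the receptors of the other TGF-beta ligands and binds best with a co-receptor, stood at 19.5, 33.3 and 13 CPM and 11.1, 14.8 and 16.6 CPM, and the subsets overlapped. *Tgfb1*, the ligand most studied in immune regulation, was low, with 0, 6 and 63 counts in DsRed- cTEC and 82, 55 and 134 counts in DsRed+ cTEC, a log2 fold change of -1.82 with a standard error of 1.72. Relative to the sum of the 3 ligands in CPM per kb of exon, *Tgfb3* made up 88.1%, 85.1% and 93.7% in DsRed- cTEC of A, B and C and 90.5%, 79.3% and 74.4% in DsRed+ cTEC. The share of *Tgfb1* did not pass 0.755% in DsRed- cTEC and lay between 1.31% and 4.93% in DsRed+ cTEC. These shares did not overlap, on counts that were low, but the CPM of *Tgfb1* itself overlapped between the subsets. The sum behind the shares was mostly *Tgfb3*, which was higher in every DsRed- library.

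Of the type I receptors, 5 of 6 overlapped between the subsets and *Acvrl1* did not, beside 9.32% of all genes tested that were lower in every DsRed- library. *Acvrl1* (ENSMUSG00000000530; chr15:101128522-101145336, plus strand) encodes ALK1, a type I receptor known mainly from endothelium, where it binds BMP9 and BMP10. It stood at 15.7, 12.9 and 29 CPM in DsRed- cTEC and at 31.8, 56 and 244 CPM in DsRed+ cTEC, and the DsRed+ library of C was far above the rest. The ratio of DsRed- cTEC to DsRed+ cTEC was 0.493, 0.23 and 0.119 in A, B and C. The log2 fold change was -2.52 (standard error 0.79; 95% interval -4.41 to -0.64), with an adjusted p of 0.253 in edgeR's quasi-likelihood test, 0.0305 in its likelihood ratio test and 0.00973 in DESeq2, and of 0.00176 to 0.534 over all alternatives. With the DsRed+ library of C left out, the log2 fold change was -1.22 and the adjusted p of the likelihood ratio test 0.345. That test called *Acvrl1* in the fits without the DsRed- library of C, the DsRed+ library of A or the DsRed+ library of B, 3 of 6. The 14 endothelial markers were likewise highest in the DsRed+ library of C, with sums of 174, 197 and 217 CPM in DsRed- cTEC of A, B and C and 931, 901 and 6713 CPM in DsRed+ cTEC, and the part of endothelial cells in the level of *Acvrl1* was not tested.

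*Bmpr1a*, the main type I receptor for BMP2 and BMP4, was steady, at 51.8, 72 and 59.9 CPM in DsRed- cTEC and 77.2, 79 and 43.2 CPM in DsRed+ cTEC. Its log2 fold change was -0.12 with a 95% interval of -0.82 to 0.59, so differences of up to that size in either direction could not be told from none. *Bmpr1b*, the other BMP type I receptor, did not pass 4.06 CPM in any library and had 1 count in the DsRed- library of B and in the DsRed+ library of C. *Tgfbr1*, the type I receptor for TGF-beta, stood at 16, 36.2 and 30.2 CPM and 27.1, 20.4 and 17.6 CPM. *Acvr1* and *Acvr1b*, which encode ALK2 for BMPs and ALK4 for activins, ranged from 11 to 20.4 CPM and from 5.82 to 10.1 CPM over all libraries. Neither receptor separated the subsets.

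None of the type II receptors nor the co-receptor separated the subsets. *Tgfbr2*, the type II receptor for TGF-beta, stood at 179.8, 199.6 and 178 CPM in DsRed- cTEC and at 240.3, 153 and 228 CPM in DsRed+ cTEC, with a log2 fold change of -0.16 and a 95% interval of -0.67 to 0.36. In CPM per kb of exon it had the highest mean of the receptor kinases over the 6 libraries, at 24.0, and was above *Acvr2a* at 2.17 in 6 of 6 libraries. In DsRed+ cTEC alone the mean of *Acvrl1* was 25.9 CPM per kb and that of *Tgfbr2* 25.3 CPM per kb, an order that rested on C. In DsRed+ cTEC of A, B and C, *Acvrl1* stood at 7.47, 13.1 and 57.1 CPM per kb. *Tgfbr2* stood at 29.3, 18.6 and 27.8 CPM per kb in the same libraries. *Acvr2a*, a receptor shared by activins and BMPs, stood at 14.6, 7.33 and 15.6 CPM and 12.7, 11.8 and 12 CPM. *Bmpr2*, the type II receptor specific for BMPs, was variable, at 1.55, 17.7 and 3.79 CPM and 7.81, 4.96 and 12.2 CPM. *Acvr2b*, a second activin receptor, did not pass 1.19 CPM. *Tgfbr3*, also called betaglycan, which presents TGF-beta2 to its receptors and binds inhibin, stood at 159.8, 117 and 243 CPM in DsRed- cTEC and 141, 85.3 and 162 CPM in DsRed+ cTEC. It was higher in DsRed- cTEC within each experiment, by 1.13-fold, 1.37-fold and 1.51-fold in A, B and C, but the subsets overlapped and the log2 fold change was 0.42 (standard error 0.35; adjusted p = 0.758 in edgeR's quasi-likelihood test).

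**Figure D3:**
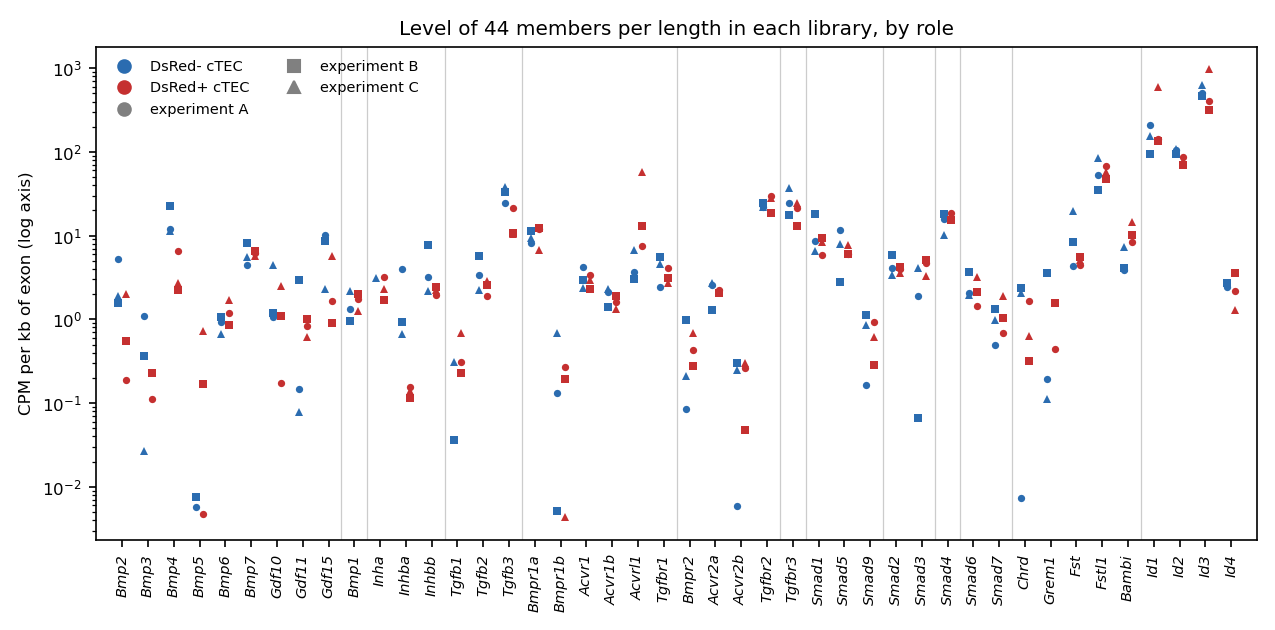
CPM per kb of exon on a log axis for 44 members in role order, separated by grey lines, with DsRed- libraries in blue, DsRed+ libraries in red and marker shapes for the experiments. *Id3*, *Id1* and *Id2* are the highest, *Tgfb3*, *Tgfbr2*, *Tgfbr3*, *Fstl1* and *Smad4* form the next tier, and 5 values of 0 are not drawn, nor is *Nog*.

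SMAD transcripts were present in both subsets and none of the 8 separated them. *Smad4*, the common partner, stood at 57.9, 68 and 37.4 CPM in DsRed- cTEC and at 69.3, 56.4 and 56.9 CPM in DsRed+ cTEC, with a log2 fold change of -0.16 and a 95% interval of -0.82 to 0.50. Of the BMP SMADs, *Smad1* stood at 54.4, 112 and 41.1 CPM and 36.6, 58.5 and 52 CPM, and *Smad5* at 87.7, 20.7 and 58.2 CPM and 44.6, 44.4 and 57.6 CPM. Those of *Smad5* in DsRed- cTEC spanned 4.23-fold, from the lowest to the highest of all 6 libraries. *Smad9* was much lower, with no library above 6.12 CPM. Of the SMADs of TGF-beta and activin, *Smad2* was steady at 36, 51.2 and 29.4 CPM and 34.7, 36.9 and 31.8 CPM. *Smad3* was not, at 10.5, 0.365 and 22.8 CPM in DsRed- cTEC and 26.4, 28.6 and 18.5 CPM in DsRed+ cTEC. The DsRed- library of B, with 12 counts of *Smad3*, stood apart from the other 5 libraries, which had 455 to 1397 counts, and the log2 fold change of -1.12 had a standard error of 1.11. The inhibitory SMADs, which are themselves induced by the pathway, were low: *Smad6* ranged from 4.63 to 11.8 CPM and *Smad7* from 2.22 to 8.48 CPM, and both overlapped between the subsets.

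Among the antagonists and modulators, *Bambi* separated the subsets and *Fst* and *Fstl1* did not. Of all genes tested, 9.32% were likewise lower in every DsRed- library. *Bambi* (ENSMUSG00000024232; chr18:3507923-3516404, plus strand) encodes a pseudoreceptor that resembles a type I receptor but lacks the kinase. It stood at 19.6, 20.7 and 37.5 CPM in DsRed- cTEC and at 42.2, 51.3 and 74.2 CPM in DsRed+ cTEC. The ratio was much the same in each experiment, 0.465, 0.404 and 0.506 in A, B and C, and both subsets were highest in C. The log2 fold change was -1.11 (standard error 0.37; 95% interval -1.98 to -0.23), with an adjusted p of 0.281 in edgeR's quasi-likelihood test, 0.156 in its likelihood ratio test and 0.109 in DESeq2. The likelihood ratio test with the experiment as a block called it (adjusted p = 0.0361), as did that test without the DsRed- library of C (adjusted p = 0.0208).

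*Fst*, which encodes Follistatin, the inhibitor of activins, stood at 20.2, 38.9 and 89.7 CPM in DsRed- cTEC and 20.4, 25.2 and 23.8 CPM in DsRed+ cTEC. The DsRed- library of A was just under the lowest DsRed+ library, that of C was the highest, and the log2 fold change was 1.10 (standard error 0.53; adjusted p = 0.507 in edgeR's quasi-likelihood test). Without the DsRed- library of C the log2 fold change was 0.35. *Fstl1*, a secreted glycoprotein related to Follistatin and abundant in mesenchyme, was the highest of this group, at 259, 171 and 413 CPM and 331, 236 and 279.6 CPM, with a log2 fold change of -0.01 and a 95% interval of -0.79 to 0.78. Both *Fst* and *Fstl1* were highest in the DsRed- library of C, where the fibroblast markers summed to 2224 CPM against 546 and 797 CPM in those of A and B, and the part of fibroblasts was not tested. Of the members, the BMP antagonists *Chrd*, *Grem1* and *Nog* were low and irregular. Other secreted modulators of the pathway varied: *Sost* had 0 counts in every library, while *Nbl1* stood at 33.9 to 74.8 CPM and *Twsg1* at 382 to 747 CPM over all libraries. *Chrd*, which encodes Chordin, stood at 0.0462, 14.7 and 13.1 CPM and 10.5, 2.0 and 3.94 CPM, and *Grem1*, which encodes Gremlin, at 0.808, 14.8 and 0.467 CPM and 1.81, 6.47 and 0 CPM. *Chrd* had 2 counts in the DsRed- library of A, and *Grem1* had 0 counts in the DsRed+ library of C. *Nog*, which encodes Noggin, had 0, 0 and 0 counts in DsRed- cTEC and 6, 6 and 0 counts in DsRed+ cTEC and was not tested.

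*Id1*, *Id2* and *Id3* were the most abundant members per length, and *Id2* was the only one of the 4 Id genes that separated the subsets. Of all genes tested, 9.73% were likewise higher in every DsRed- library. In CPM per kb of exon, *Id3* averaged 551 over the 6 libraries, *Id1* 221, *Id2* 90.6 and *Id4* 2.48, and each was above the next in 6 of 6 libraries. *Id2* (ENSMUSG00000020644; chr12:25093799-25097140, minus strand) stood at 259, 228 and 267 CPM in DsRed- cTEC and at 210.2, 173 and 188 CPM in DsRed+ cTEC. Its libraries did not overlap between the subsets, the ratio within an experiment was 1.23, 1.32 and 1.42 in A, B and C, and the log2 fold change was 0.40 (standard error 0.17; adjusted p = 0.421 in edgeR's quasi-likelihood test). The difference was small, with a log2 fold change of 0.34 to 0.47 without each library in turn. Its sign in these fits follows from the lack of overlap and is no further evidence. *Id1* stood at 242, 111 and 178 CPM in DsRed- cTEC and at 165, 155 and 689 CPM in DsRed+ cTEC. The DsRed+ library of C was far above the other 5, and without it the log2 fold change went from -0.93 to 0.11. *Id3* stood at 909.6, 843 and 1141 CPM in DsRed- cTEC and at 719, 572 and 1734 CPM in DsRed+ cTEC. Here too the DsRed+ library of C was the highest, and without it the log2 fold change went from -0.06 to 0.55 (adjusted p = 0.506 in edgeR's quasi-likelihood test). *Id4* stood at 9.28, 10.3 and 10.4 CPM and 8.45, 14 and 5.0 CPM and overlapped.

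Relative to the sum of the 4 Id genes in CPM per kb of exon, *Id2* made up 12.9%, 14.1% and 12.1% in DsRed- cTEC of A, B and C, and 13.6%, 13.4% and 4.70% in DsRed+ cTEC. *Id1* made up 25.3%, 14.4% and 17% in DsRed- cTEC and 22.5%, 25.3% and 36.2% in DsRed+ cTEC. The DsRed+ library of C was thus the one in which *Id1* had its highest and *Id2* its lowest share, and it was also the one in which all 14 endothelial markers were highest among DsRed+ cTEC. The part of endothelial cells in the Id levels was not tested.

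**Figure D4:**
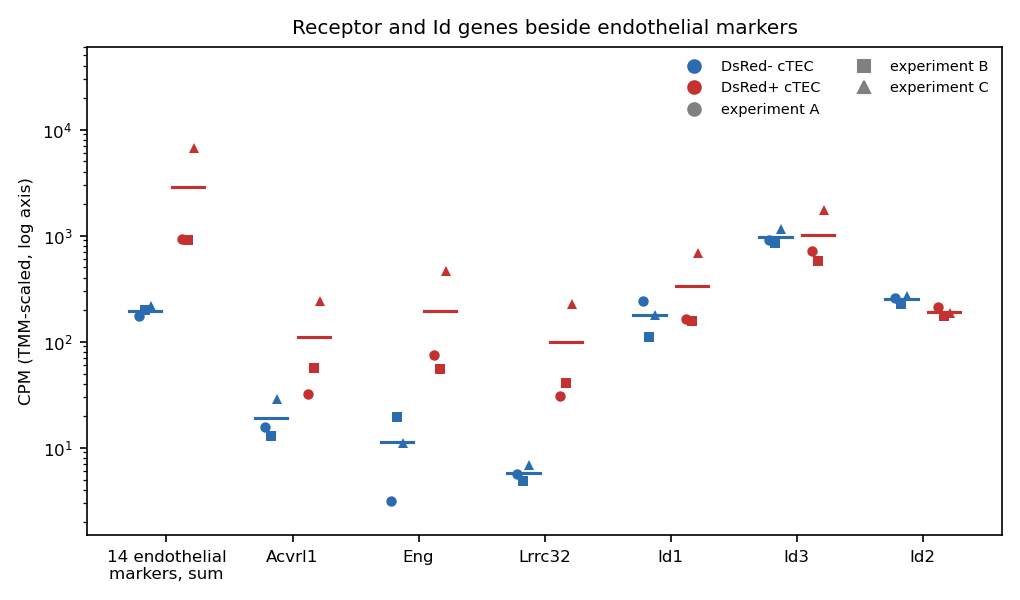
CPM on a log axis of the sum of 14 endothelial markers, of *Acvrl1* and the pathway genes *Eng* and *Lrrc32*, and of *Id1*, *Id3* and *Id2*, with DsRed- libraries in blue, DsRed+ libraries in red, marker shapes for the experiments and bars at subset means. The DsRed+ library of C is the highest point for the markers, *Acvrl1*, *Eng*, *Lrrc32*, *Id1* and *Id3*, but not for *Id2*.

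The median spread between libraries was somewhat larger for the members than for all genes tested, which were not matched to them for level. The median standard deviation of log2(CPM + 1) over the 43 members was 0.59 in DsRed- cTEC and 0.41 in DsRed+ cTEC, beside 0.52 and 0.38 over all genes tested. The DsRed- libraries of A, B and C held the highest value of 6, 14 and 10 members, and the DsRed+ libraries that of 3, 3 and 7. Over all genes tested, the same libraries held the highest value of 21.15%, 22.46% and 12.98% and of 11.29%, 13.17% and 18.95%. The highest values were spread over the experiments, with those of *Bmp4*, *Inhbb*, *Smad1* and *Chrd* in B, of *Fst*, *Tgfb3* and *Tgfbr3* in C, and of *Inhba*, *Bmp2* and *Smad5* in A.

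Of 84 other genes of the pathway, 82 were in the table and 58 were tested. This list was chosen with earlier results of these data known, so its shares beside those of all genes are descriptions only. None passed the quasi-likelihood test at an adjusted p of 0.05. At an unadjusted p under 0.05 there were 13, 22.41% of the 58 beside 11.8% of all genes, and the likelihood ratio test called 10, with 6 higher (10.34% beside 3.53%) and 4 lower (6.897% beside 2.12%) in DsRed- cTEC. Those without overlap were 10 higher and 5 lower, 17.24% and 8.621% of the 58 beside 9.73% and 9.32%. Of the 18 other ligands listed, only 5 were tested, and 8 had no count in any library. The 19 intracellular modulators were all tested, and 1 was called by the likelihood ratio test. Of the 12 secreted modulators tested, 10 had a positive log2 fold change (median 0.83), beside 7989 of 15576 over all genes, and the likelihood ratio test called 3, all higher in DsRed- cTEC.

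Those called as higher in DsRed- cTEC by the likelihood ratio test were *Ltbp1*, *Thbs1*, *Dcn*, *Bmper*, *Nedd4l* and *Cdkn2b*. *Ltbp1*, which encodes a protein that stores latent TGF-beta in the matrix, stood at 57.1, 77.7 and 43.4 CPM in DsRed- cTEC and at 20.8, 12.7 and 13.7 CPM in DsRed+ cTEC (log2 fold change 1.92, SE 0.34; adjusted p = 0.0709 in edgeR's quasi-likelihood test and 4.06e-04 in its likelihood ratio test). *Thbs1*, which encodes thrombospondin 1, an activator of latent TGF-beta, stood at 307, 379.8 and 283 CPM and 151, 57.7 and 102 CPM (log2 fold change 1.64; adjusted p = 0.102 and 0.00235 in the same edgeR tests). *Dcn*, which encodes decorin, a matrix proteoglycan that binds TGF-beta, stood at 3469, 3092 and 3118 CPM and 1491, 1512 and 633 CPM (log2 fold change 1.41; adjusted p = 0.129 and 0.0115 in these edgeR tests). The subsets did not overlap in any of these 3. *Dcn* is also a transcript of fibroblasts. Their markers summed to 546, 797 and 2224 CPM in DsRed- cTEC of A, B and C and to 423, 477 and 652 CPM in DsRed+ cTEC. The part of those cells was not tested. *Bmper*, a secreted BMP-binding protein, stood at 0.97, 3.68 and 10.9 CPM in DsRed- cTEC and at 0 counts in every library of DsRed+ cTEC, at least 79.2-fold higher against a floor of 3 counts per library, and at least 35.5-fold higher without the DsRed- library of C (adjusted p = 0.104 in edgeR's quasi-likelihood test and 3.47e-05 in its likelihood ratio test). *Nedd4l*, a ubiquitin ligase for activated SMAD2 and SMAD3, stood at 119, 92.9 and 92.3 CPM and 40.8, 16.1 and 21.1 CPM (log2 fold change 1.97; adjusted p = 0.0858 and 5.18e-04 in the edgeR tests). *Cdkn2b*, a cell cycle inhibitor and classical TGF-beta target, stood at 46.7, 47 and 13.2 CPM and 3.95, 6.15 and 8.3 CPM (log2 fold change 2.54; adjusted p = 0.12 and 0.00412, edgeR).

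Those called as lower in DsRed- cTEC by that test included genes known from endothelium. *Lrrc32*, which encodes GARP, a cell surface anchor of latent TGF-beta, stood at 5.63, 4.81 and 6.86 CPM in DsRed- cTEC and at 30.7, 40.6 and 225 CPM in DsRed+ cTEC (log2 fold change -4.10, SE 0.84; adjusted p = 0.0923 in edgeR's quasi-likelihood test and 7.98e-05 in its likelihood ratio test). *Gata2*, a transcription factor of blood and endothelium that BMP induces, stood at 0.231, 0.365 and 0.418 CPM and 4.84, 5.88 and 53.9 CPM (adjusted p = 0.0926 in edgeR's quasi-likelihood test). *Eng* and *Msx1*, chosen after their values were seen, were the other genes of this direction called by the likelihood ratio test. *Eng*, which encodes endoglin, the co-receptor that works with ALK1 in endothelium, stood at 3.16, 19.6 and 10.9 CPM and 74.4, 55.5 and 459 CPM, with an adjusted p of 0.15 in edgeR's quasi-likelihood test and 0.00188 in its likelihood ratio test. *Msx1*, a homeobox gene and BMP target, stood at 10.8, 33.9 and 23.2 CPM and 85.1, 66.3 and 61.7 CPM, with an adjusted p of 0.157 and 0.0179 in the edgeR tests. *Lrrc32*, *Gata2* and *Eng* were highest in the DsRed+ library of C, as were the endothelial markers, while *Msx1* was highest in that of A, and the part of endothelial cells was not tested. Without the DsRed+ library of C the log2 fold change went from -4.10 to -2.66 for *Lrrc32*, from -5.98 to -4.01 for *Gata2* and from -4.13 to -2.56 for *Eng*. The likelihood ratio test called *Eng*, *Lrrc32*, *Gata2*, *Ltbp1*, *Bmper*, *Thbs1* and *Nedd4l* without each of the 6 libraries in turn, *Dcn* in 5 of these 6 fits, and *Msx1* and *Cdkn2b* in 3. Since the same test on all 6 libraries picked these genes, these calls are no further evidence. The quasi-likelihood test called none of them without 1 library, with a lowest adjusted p of 0.0604, for *Cdkn2b* without the DsRed- library of C.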

How the data were processed

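The series holds 6 RNA-seq libraries of cTEC, 1 of DsRed- and 1 of DsRed+ cTEC from each of experiments A, B and C. The authors amplified polyadenylated RNA with a SMARTer Ultra Low Input kit, and by their methods and the submitters' processing notes the reads were trimmed with Trimmomatic 0.36, aligned with STAR 2.7.3a (mm10) and counted per gene by HTSeq. The deposited values are whole-number counts per gene, without normalization. Neither the annotation release nor the strand setting is stated. Of 39277 entries, 39179 were genes, 92 spike-ins and 5 HTSeq summaries, and entries that name no gene, the DsRed transcript included, stayed out of library sizes and tests. Reads in no gene came to 5.87% to 9.35% of the counts in genes. Symbols and exon lengths came from GENCODE M21 (GRCm38), which gave 37607 genes a symbol.

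Counts were filtered by filterByExpr (minimum count 10), scaled by TMM, and tested with the quasi-likelihood test of edgeR 4.0.16 in R 4.3.3 (prior count 0.125, Benjamini-Hochberg adjustment over 15576 genes, threshold 0.05). The alternatives were the likelihood ratio test, a term for the experiment (replicate block), DESeq2 1.42.0, voom in limma 3.58.1, size factors by RLE, unscaled library totals, no filter on low counts, a filter at a mean of 1 CPM, and leaving out each library with the tested genes kept. Leaving out each library under the likelihood ratio test was added after seeing the data. CPM used TMM-scaled library sizes, and CPM per kb divided it by the union of exon lengths. A floor of 3 counts per library equals 0.0567 to 0.0913 CPM, and floors cover counting error only, since amplified reads are not independent molecules. Plots were drawn with matplotlib 3.10.9 in Python 3.11.15.

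Libraries of the same labelled experiment were treated as a pair in the ratios within an experiment and in the fits with the block. The other fits, the main test included, had no term for the experiment. Across genes, deviations from the subset means correlated within pairs at 0.0106 (A), 0.0778 (B) and 0.0716 (C), and between unpaired libraries at -0.0948 to 0.00374. No 2 libraries were duplicates, with a chi-square per degree of freedom of 154 to 663. Simulated data were used to check the quasi-likelihood test. Members given with every value were those called by the quasi-likelihood test, that test with the block or the likelihood ratio test, those without overlap and averaging 5 CPM or more in the higher subset, the highest per length in each role, and 12 textbook members, and from the other pathway genes the 8 with the smallest p. Other members are given by value where their role is described. The members, lists and tests were chosen with earlier results of these data known. Promoters came from RefSeq (GRCm38.p6), and no protein sequence was used here.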

Additional observations from a re-analysis of the deposited data

How the results depend on the processing

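The counts of members called at an adjusted p of 0.05 depended on the test. The quasi-likelihood test called 0 higher and 0 lower members, and so did that test with the experiment as a block, limma voom, size factors by RLE, unscaled totals, the fit with all genes, the filter at a mean of 1 CPM and each fit without 1 library. The likelihood ratio test called 2 higher and 1 lower, with the block 2 higher and 2 lower, and DESeq2 3 higher and 1 lower. Of the other pathway genes, these 3 settings called 10, 12 and 9, against 0. Over all 15576 genes, the likelihood ratio test called 550 higher and 330 lower. With the block it called 644 and 416, and DESeq2 called 704 and 377, against 70 and 27 in the quasi-likelihood test. Without 1 library, the likelihood ratio test called 0 to 2 members as higher (0 without the DsRed- library of A or the DsRed+ library of B or C, 1 without the DsRed- library of B) and 0 to 3 as lower (3 without the DsRed- library of C and 0 without that of A or B or the DsRed+ library of C), and 8 to 12 other pathway genes. Over all genes tested, these fits called 420 to 744 as higher and 270 to 721 as lower. Both counts were highest without the DsRed- library of C. The cause of the differences between settings was not tested.

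Of the 30 named genes that were tested, 20 kept 1 direction under every alternative and 10 did not. Some of these genes were named because their libraries did not overlap or because a test called them. For genes without overlap, leaving out 1 library could hardly turn the direction, so the 20 are no measure of robustness. The log2 fold change of *Fstl1* turned to 0.0025 with DESeq2 and with RLE size factors, and that of *Id3* to 0.10 with the block in either edgeR test and 0.12 with limma voom. Without 1 library, the log2 fold changes ranged from -0.55 to 0.076 for *Bmp1*, -0.38 to 0.021 for *Bmpr1a*, -0.038 to 0.77 for *Smad1*, -0.077 to 0.34 for *Smad2*, -0.35 to 0.049 for *Smad4*, -0.17 to 0.48 for *Smad6*, -0.39 to 0.25 for *Fstl1*, -1.29 to 0.11 for *Id1*, -0.33 to 0.55 for *Id3* and -0.20 to 0.57 for *Id4*. With the block, the quasi-likelihood test changed no call of a member. Depth set a floor of 0.0567 to 0.0913 CPM, and *Bmp5*, *Nog*, *Tgfb1*, *Inha*, *Bmpr1b*, *Grem1* and *Acvr2b* had 1 or fewer counts in at least 1 library.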
